A study of Sus scrofa and Bos taurus with 31 samples.

Results

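Of the 533944 regions made by merging the peaks of 16 pig ATAC-seq libraries, 479 were chosen on their measured peaks because they had a peak in both animals in each of the 5 non-brain tissues (adipose, liver, lung, skeletal muscle and spleen) and in both animals of no brain tissue (cerebellum, cerebral cortex and hypothalamus). A tissue is called open at a region when both animals have a peak there, and 284109 regions were open in at least 1 tissue, so the members made up 0.169% of open regions. The rule leaves room for a peak in a single animal of a brain tissue, and 389 of the 479 members had at least 1 such peak. The members are therefore called here regions not open in brain by the rule of both animals, and the 90 with no peak in any of the 6 brain libraries are described beside them.

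Chromatin accessibility was measured in nuclei that had been frozen after isolation from fresh tissue, in 2 castrated male Yorkshire pigs from the same litter, P348 and P350, both 6 months old and untreated as far as the labels say. Every tissue is represented by the same pair of animals, so each group holds 2 libraries. The deposited peak lists hold between 99960 peaks (skeletal muscle of P350) and 217308 peaks (cerebellum of P348), and read depth was not used here. Of 24 marker genes, 12 had their largest share of peak bases in the tissue they mark and 20 ranked that tissue among the first 3, while the spleen transcription factor gene TLX1 ranked spleen last.

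In ATAC-seq a transposase cuts DNA that is free of nucleosomes, so that promoters, enhancers and insulators appear as peaks. Promoters of genes that every cell uses tend to be open in all tissues, whereas enhancers tend to be open in a few related tissues. The non-brain tissues sampled here come from different germ layers, but all of them hold fibroblasts, endothelium and blood cells, and brain is made mainly of neurons and glia. HOX genes, which give cells their position along the body axis, are used in the trunk and not in the forebrain. AP-1, a dimer of FOS and JUN proteins that binds the letters TGANTCA, opens enhancers in many adherent and stimulated cells. In tissue samples such as these, fewer cells of a type and less open chromatin per cell cannot be told apart.

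The sequences below are shown because they come from members with no brain peak, and they show what such a region holds. Within the members away from a coding TSS, and separately within the TSS proximal ones, those with the highest value of the lowest fold enrichment over the 10 non-brain libraries were taken. Each is the forward strand of Sscrofa11.1, as given by RefSeq, in the stretch without annotated exons that is nearest to the core that most libraries cover, and capitals mark matches to the AP-1 letters TGANTCA. The first 5 lie away from a coding TSS.

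TBL1XR1, chr13:115685022-115685321: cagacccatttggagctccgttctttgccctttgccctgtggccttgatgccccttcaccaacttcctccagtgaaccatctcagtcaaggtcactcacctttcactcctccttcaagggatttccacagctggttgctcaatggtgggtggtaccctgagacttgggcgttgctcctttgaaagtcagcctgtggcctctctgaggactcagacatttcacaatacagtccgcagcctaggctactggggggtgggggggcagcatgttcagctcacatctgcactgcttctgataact
TMEM164, chrX:90081840-90082139: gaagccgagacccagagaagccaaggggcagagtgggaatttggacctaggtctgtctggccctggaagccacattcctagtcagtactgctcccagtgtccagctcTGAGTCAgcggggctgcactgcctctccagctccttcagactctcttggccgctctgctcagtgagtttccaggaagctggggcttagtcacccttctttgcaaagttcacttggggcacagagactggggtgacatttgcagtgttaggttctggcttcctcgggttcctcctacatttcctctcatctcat
THEM5, chr4:97300402-97300701: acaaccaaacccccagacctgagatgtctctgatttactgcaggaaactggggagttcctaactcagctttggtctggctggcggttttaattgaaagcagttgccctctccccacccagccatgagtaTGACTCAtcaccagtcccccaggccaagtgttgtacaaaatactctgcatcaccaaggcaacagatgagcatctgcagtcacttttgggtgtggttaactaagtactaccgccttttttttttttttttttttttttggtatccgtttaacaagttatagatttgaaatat
STN1, chr14:114840030-114840329: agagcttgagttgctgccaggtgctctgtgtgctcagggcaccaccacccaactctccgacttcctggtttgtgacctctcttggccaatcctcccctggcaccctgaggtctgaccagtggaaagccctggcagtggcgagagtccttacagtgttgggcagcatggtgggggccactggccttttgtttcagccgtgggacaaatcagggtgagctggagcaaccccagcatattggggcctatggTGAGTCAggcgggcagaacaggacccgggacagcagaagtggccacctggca
GPR18, chr11:68207209-68207508: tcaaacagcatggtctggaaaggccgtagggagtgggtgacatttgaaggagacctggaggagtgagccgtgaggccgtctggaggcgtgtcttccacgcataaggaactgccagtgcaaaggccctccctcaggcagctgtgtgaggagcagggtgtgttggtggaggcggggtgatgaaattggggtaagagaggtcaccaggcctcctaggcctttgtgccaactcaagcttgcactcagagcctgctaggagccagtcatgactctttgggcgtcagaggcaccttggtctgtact

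The last 2 lie within 2 kb of a coding TSS.

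LHFPL2, chr2:87489353-87489652: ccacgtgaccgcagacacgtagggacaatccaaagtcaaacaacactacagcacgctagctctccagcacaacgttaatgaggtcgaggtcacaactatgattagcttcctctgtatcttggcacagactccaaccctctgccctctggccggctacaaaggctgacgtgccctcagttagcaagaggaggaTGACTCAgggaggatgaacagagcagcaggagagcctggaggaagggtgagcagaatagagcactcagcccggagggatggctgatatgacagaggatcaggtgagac
MYL4, chr12:16792873-16793172: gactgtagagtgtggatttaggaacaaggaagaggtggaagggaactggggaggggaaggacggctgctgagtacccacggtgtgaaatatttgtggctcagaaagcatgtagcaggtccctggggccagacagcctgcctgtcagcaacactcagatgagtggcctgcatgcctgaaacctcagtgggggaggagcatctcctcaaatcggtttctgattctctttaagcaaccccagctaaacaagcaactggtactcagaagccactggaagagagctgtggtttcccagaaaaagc

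The AP-1 letters occurred once in the windows of TMEM164, THEM5, STN1 and LHFPL2 and not in those of TBL1XR1, GPR18 and MYL4. The window of GPR18 held 2 matches to the core letters of CTCF, the insulator protein. The next member in the order of TSS proximal regions, at HOXC6, is covered by annotated exons and is given without sequence.

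The first question was how often a region that is open across the body is not open in brain. There were 23451 regions open in all 5 non-brain tissues, and 16833 of them (71.8%) were open in all 3 brain tissues as well. Another 4162 (17.7%) were open in 2 brain tissues and 1977 (8.43%) in 1 brain tissue. Only the remaining 479 regions, 2.04% of the 23451, were open in no brain tissue. The number fell to 222 with peaks of q-values under 0.01 and to 55 under 0.0001, and judged in 1 animal alone it was 950 in P348 and 439 in P350. Among the 1977 regions with 1 brain tissue, that tissue was the cerebral cortex in 1679, the cerebellum in 188 and the hypothalamus in 110. Sets of 5 open tissues can be drawn from 8 tissues in 56 ways, and 14534 regions were open in exactly 5. The set that defines the members was 10th by number of regions, against a median of 150 and a range of 7 to 1402 regions per set. The largest set, with 1402 regions, joined liver, lung, skeletal muscle and spleen with cerebral cortex.

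Members differed in how many brain libraries had a peak. There were 90 members (18.8%) with none, 146 with 1, 146 with 2 and 97 with 3, which is the most that the rule allows. A peak was present in the cerebellum of P348 at 9.39% of members and in that of P350 at 38.4%. The shares were 27.97% and 31.3% in the cerebral cortex of P348 and P350, and 25.1% and 20.04% in their hypothalamus. The same 6 libraries had a peak at 79.7% to 97.4% of all regions open in the 5 non-brain tissues, with the lowest share again in the cerebellum of P348. These shares are partly set by the rule, which admits no tissue with both animals. As many as 184 members were not open in cerebellum through the lack of a peak in P348 alone, and with cerebellum judged by P350 only, 295 members were left.

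**Figure D1:**
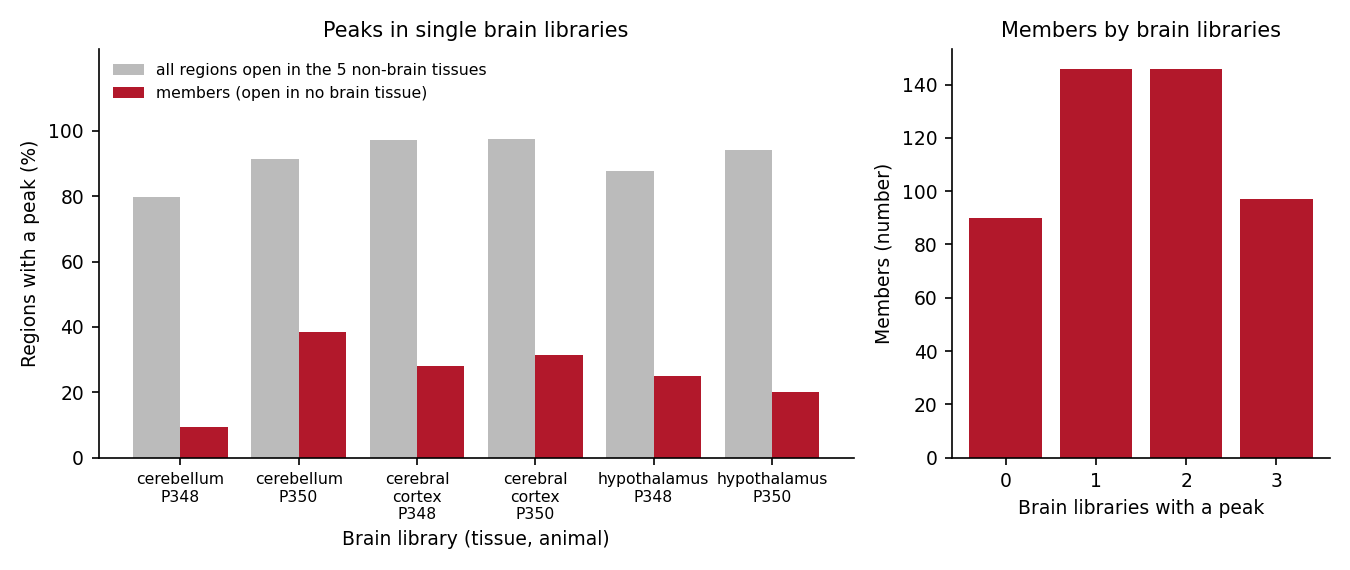
Left, percent of regions with a peak in each brain library (tissue and animal), with grey bars for the 23451 regions open in the 5 non-brain tissues and red bars for the 479 members. Right, number of members by how many of the 6 brain libraries had a peak. Members had a peak in 9.39% (cerebellum of P348) to 38.4% (cerebellum of P350), and 90 members had none.

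How far the pattern held in an animal that did not choose the regions was measured with candidates chosen in 1 pig and measured in the other. With the 8 lists of P348 alone, 950 candidate regions had a peak in the 5 non-brain tissues and none in brain, and with P350 alone 439 did. The share of candidates with a peak in the other animal was 67.6% ± 14.6 (SD, n = 2 directions) in adipose, 77.5% ± 8.06 in liver, 86.7% ± 3.06 in lung, 80.1% ± 13.6 in skeletal muscle and 74.3% ± 2.28 in spleen. It was 20.6% ± 11.08 in cerebellum, 35.2% ± 3.38 in cerebral cortex and 21.5% ± 1.05 in hypothalamus. The lowest non-brain share in a single direction, 57.3% in the adipose of P350, lay above the highest brain share, 37.6% in the cerebral cortex of P350. The non-brain mean exceeded the brain mean by 51.5 percentage points, which is given as a description. Candidates are chosen for this split of the tissues, so it must rank first among the 56 choices of 3 of 8 tissues wherever the 2 libraries of a tissue resemble each other, and a permutation p over these choices says no more than that. The difference was 57.2 points when measured in P348 and 45.7 points when measured in P350.

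In brain, the candidates' share was below that of all regions in cerebellum (12.8% against 37.5% in P348 and 28.4% against 38.4% in P350) and in hypothalamus (20.7% against 22.2% and 22.2% against 27.7%). In the brain lists of P348 a mean of 22.1% of candidates had a peak against 30.3% of all 440653 regions made from the lists of P350, and in those of P350 the means were 29.4% against 32.5% of 465661. In the non-brain lists the means were 79.3% against 27.8% in P348 and 75.1% against 25.6% in P350. In the cerebral cortex the candidates' share was above that of all regions in both animals (32.8% against 31.1% in P348 and 37.6% against 31.4% in P350).

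**Figure D2:**
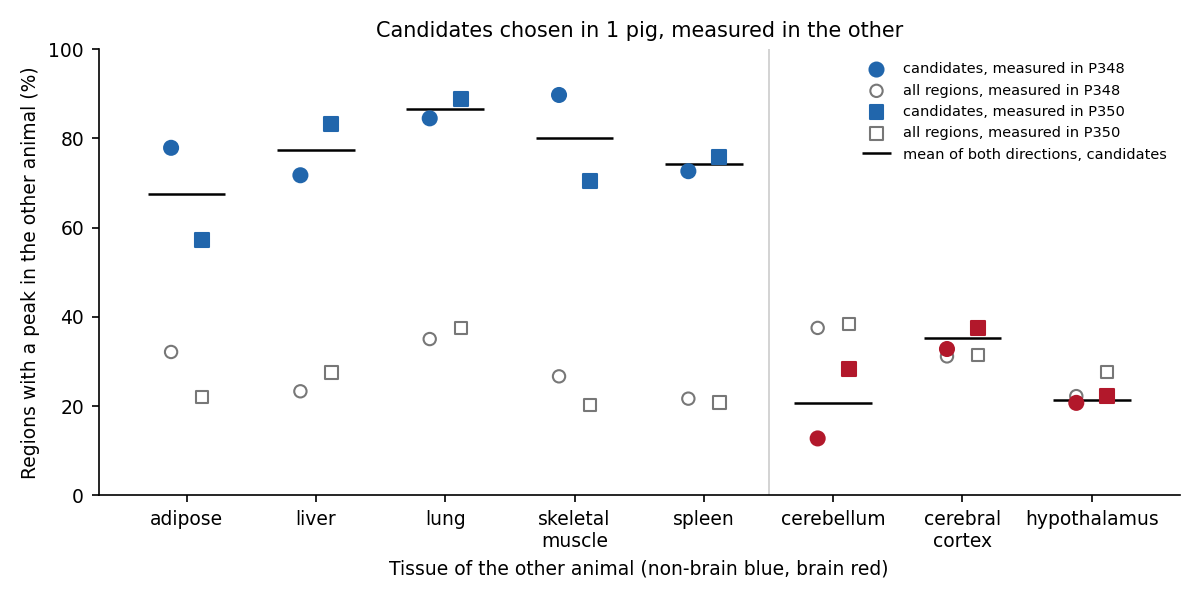
Percent of candidate regions, chosen in 1 pig as having a peak in the 5 non-brain tissues and none in brain, that had a peak in each tissue of the other pig (filled, non-brain blue and brain red), with all merged regions of the choosing pig as open symbols. Circles were measured in P348, squares in P350, and lines are means of both directions. The non-brain means lie between 67.6% and 86.7% and the brain means between 20.6% and 35.2%.

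The members' peaks were of middling strength in the tissues where they were open. Fold enrichment sets the signal of a broad peak, averaged over its length, against the background around it, as the peak caller gave it. The members' median fold was 2.63 and 2.79 in the adipose of P348 and P350, 3.81 and 3.33 in liver, 2.996 and 3.019 in lung, 3.13 and 3.45 in skeletal muscle, and 3.65 and 3.04 in spleen. Since libraries differ in the range of their folds, the percentile of each fold within its library was also taken. The median percentile was 36.6 ± 1.49 (SD, n = 2 animals) in adipose, 53.4 ± 5.90 in liver, 62.9 ± 5.55 in lung, 40.3 ± 5.01 in skeletal muscle and 55.1 ± 2.99 in spleen. Regions open in all 8 tissues stood higher, between 74.1 in skeletal muscle and 91.9 in lung. Where a member did have a brain peak, its median percentile was 33.4 ± 1.65 in cerebellum, 23.4 ± 4.37 in cerebral cortex and 34.4 ± 5.34 in hypothalamus. The values in cerebellum and hypothalamus were close to that of the members' adipose peaks.

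Members were not alike in where they were strongest. The highest fold lay in liver at 180 members, in skeletal muscle at 150, in spleen at 103, in lung at 39 and in adipose at 7. By the percentile within the library, lung led at 173 members, liver at 97, spleen at 95, skeletal muscle at 68 and adipose at 46. The order of tissues thus depended on the scale, and adipose came last on both.

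Values just inside and just outside the rule lay close together. The median of the lowest non-brain fold was 2.49 for members with no brain peak, 2.51 with 1 brain library, 2.39 with 2 and 2.41 with 3. Just outside the rule, it was 2.55 for the 1977 regions open in the 5 tissues and in 1 brain tissue, and 2.40 for 1095 regions that had a peak in 9 of the 10 non-brain libraries and were open in no brain tissue. It was 3.21 for regions open in all 8 tissues. The brain peaks of members had a median fold of 2.79 to 2.86, against 3.26 in the regions with 1 brain tissue.

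Members lay mostly away from promoters. Regions up to 2 kb from the start of a protein-coding transcript were counted as TSS proximal, and the rest were sorted into those near a non-coding TSS, those inside a gene (genic) and those between genes (intergenic). Of the 479 members, 58 (12.1%, 95% Wilson interval 9.48 to 15.3) were TSS proximal, 13 (2.71%) lay near a non-coding TSS, 260 (54.3%) were genic and 148 (30.9%) intergenic. TSS proximal regions made up 62.2% of those open in all 8 tissues, 7.48% of the 14055 open in another set of 5 tissues, 4.02% of the 2014 open in the 3 brain tissues only and 8.23% of all open regions. Stricter peaks raised the TSS proximal share of members to 18.9% with q-values under 0.01 (222 members) and to 29.1% under 0.0001 (55 members). The shares of the other groups are given without these limits, so they cannot be set against these values. Within 5 kb of a TSS lay 20.04% of members. The intervals count regions, which are not replicates, and cover counting error only. Counting any overlap with a protein-coding gene, 144 members reached into a coding exon, 29 into a non-coding part of an exon only and 144 into introns only, and 162 overlapped no such gene.

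Over all members, the median distance to the nearest coding TSS was 18.5 kb, against 41.7 kb for the other sets of 5 tissues, 99.9 kb for the brain-only regions and 48.2 kb for all open regions. As many as 23.6% of members lay 2 to 10 kb from a TSS, against 11.97% of all open regions, and 7.93% lay over 100 kb away, against 33.5%. The median width was 1925 bp (quartiles 1342 and 2611 bp, range 353 to 6496 bp). It was 1829 bp for regions open in all 8 tissues and for other sets of 5 tissues, 1301 bp for brain-only regions and 1157 bp for all open regions. Width is partly set by the rule, because a wide region meets a peak more easily in each of 10 libraries. The 90 members with no brain peak had a median width of 1731 bp, and 9 of them (10.0%) were TSS proximal.

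**Figure D3:**
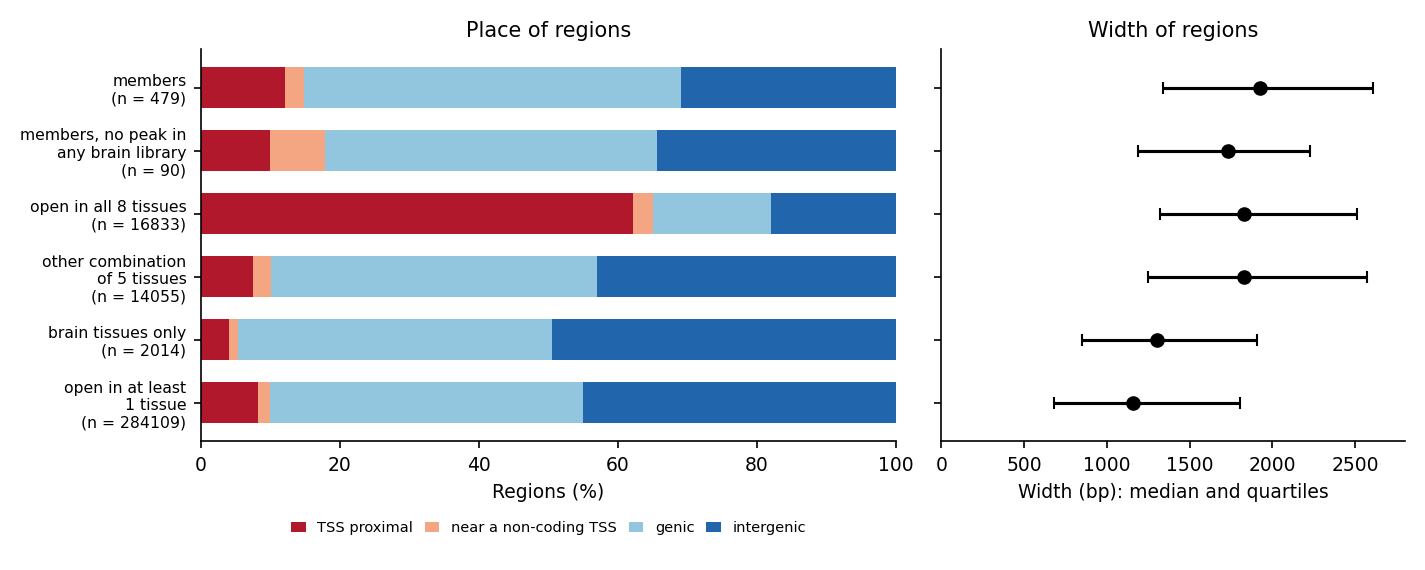
Left, percent of regions by place for members, members with no brain peak and 4 other groups of regions (number in brackets). Right, median width in bp with bars from the lower to the upper quartile. TSS proximal regions take 12.1% of members and 62.2% of regions open in all 8 tissues, and the median width is 1925 bp against 1829 bp.

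Members were spread over the genome. They occurred on all 18 autosomes, on the X chromosome (9 members) and on unplaced sequences (8), and none lay on the Y chromosome, where 294 regions were open. With 0.169% of all open regions being members, a count of 0 among so few regions is near the background. Chromosome 12 had the highest share of members among its open regions (0.355%, 28 members) and chromosome 8 the lowest of the autosomes (0.0561%, 9 members). Of 457 gaps between neighbouring members 18 were within 50 kb, and the median gap was 1.89 Mb.

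The 58 TSS proximal members were nearest to 58 genes, and a TSS lay inside the region at 40 of them. For 18 genes another TSS lay more than 2 kb away, and at 8 of these it was near a region open in all 8 tissues. Examples are MARK2, a microtubule-associated kinase, KCNAB2, a potassium channel subunit, and PLEC, the linker protein plectin, all with several annotated starts. At 6 genes, FAH, CNTNAP1, FGFR1, KDM5B, CASP10 and SH3BGRL3, the same TSS also lay within 2 kb of a region open in all 8 tissues. For the other 44 genes neither was the case, so no start of the gene lay near a region open in all 8 tissues.

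A peak was absent from all 6 brain libraries at 9 TSS proximal members. These were at LHFPL2, a tetraspan membrane protein gene, MYL4, a myosin light chain of atrial and embryonic muscle, HOXC6, IL2RB, a subunit of the interleukin-2 receptor, HOXA5, FAH, which completes tyrosine breakdown, NRXN2 and CNTNAP1, which are adhesion proteins of neurons, and the uncharacterised LOC110257044. Other starts of LHFPL2, and the same starts of FAH and CNTNAP1, lay within 2 kb of another region that was open in all 8 tissues, brain included. The folds of single regions are given as the caller wrote them, and the median over all regions with a peak ranged from 2.74 (lung of P350) to 4.05 (skeletal muscle of P350) between the non-brain libraries, so the order of tissues at a region can differ on the percentile scale. At IL2RB (chr5:10609814-10611826) the fold was 6.83 and 7.05 in the skeletal muscle of P348 and P350, 3.98 and 2.75 in spleen, and 2.24 to 2.69 in adipose, liver and lung. Both skeletal muscle libraries stood above the other 8 non-brain libraries at this region. At MYL4 (chr12:16791903-16793996) the fold was 4.62 and 7.16 in skeletal muscle, 4.28 and 3.93 in spleen, 4.05 and 3.15 in liver, 2.83 and 2.73 in adipose, and 2.57 and 2.72 in lung. FAH (chr7:49049298-49050460) had folds of 4.33 and 4.88 in lung, 4.11 and 3.73 in liver, 3.03 and 2.76 in adipose, 2.64 and 2.45 in spleen, and 2.15 and 2.60 in skeletal muscle. Liver and lung were the highest there in both animals. Around NRXN2 (chr2:7454807-7456989), a gene used in neurons, the fold was 2.13 to 3.04 over the 10 non-brain libraries.

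Among 14 gene lists, that of HOX genes had the most members and the most genes with a member at a TSS. Of 36 annotated HOX genes, 6 (16.7%) had a member nearest to their TSS, against 2.24% of all protein-coding genes, and 4 had it within 2 kb. The lists were chosen with earlier results of these data known, so the counts are descriptions. All 4 clusters were represented, by HOXA5 and HOXA11 on chromosome 18, HOXB2 on chromosome 12, HOXC6 and HOXC8 on chromosome 5 and HOXD9 on chromosome 15. The member counted for HOXD9, the nearest gene, overlapped HOXD11 and also lay within 2 kb of a TSS of HOXD10 and of HOXD11. Of 112 open regions nearest to HOX genes, 5.36% were members, and 40.2% were open in a brain tissue, against 68.6% of all open regions.

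At HOXA5 (chr18:45429889-45431938, 198 bp from the TSS) the fold was 2.64 and 2.40 in the adipose of P348 and P350, 5.22 and 4.02 in liver, 3.86 and 2.68 in lung, 2.16 and 2.60 in skeletal muscle, and 4.17 and 2.82 in spleen. Liver was the highest in each animal, its range overlapped that of spleen, and all 6 brain libraries were without a peak. It was the only open region nearest to HOXA5. At HOXC6 (chr5:19230298-19232373, across the TSS) the fold was 2.55 and 3.19 in adipose, 3.03 and 2.66 in liver, 3.21 and 2.73 in lung, 2.73 and 2.99 in skeletal muscle, and 4.53 and 2.96 in spleen. The tissues overlapped at HOXC6, and no brain library had a peak. HOXC8 (chr5:19217774-19219317), 2807 bp from the TSS in the same cluster, had folds of 5.59 and 6.15 in liver and 2.13 and 2.22 in adipose. It also had a peak in the hypothalamus of P348 with a fold of 4.16 and in the cerebral cortex of P350 with 2.78. The members at HOXA11, HOXB2 and HOXD9 each had a peak in the same pair of brain libraries, the cerebellum of P350 and the hypothalamus of P348, with folds from 2.72 to 3.62.

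**Figure D4:**
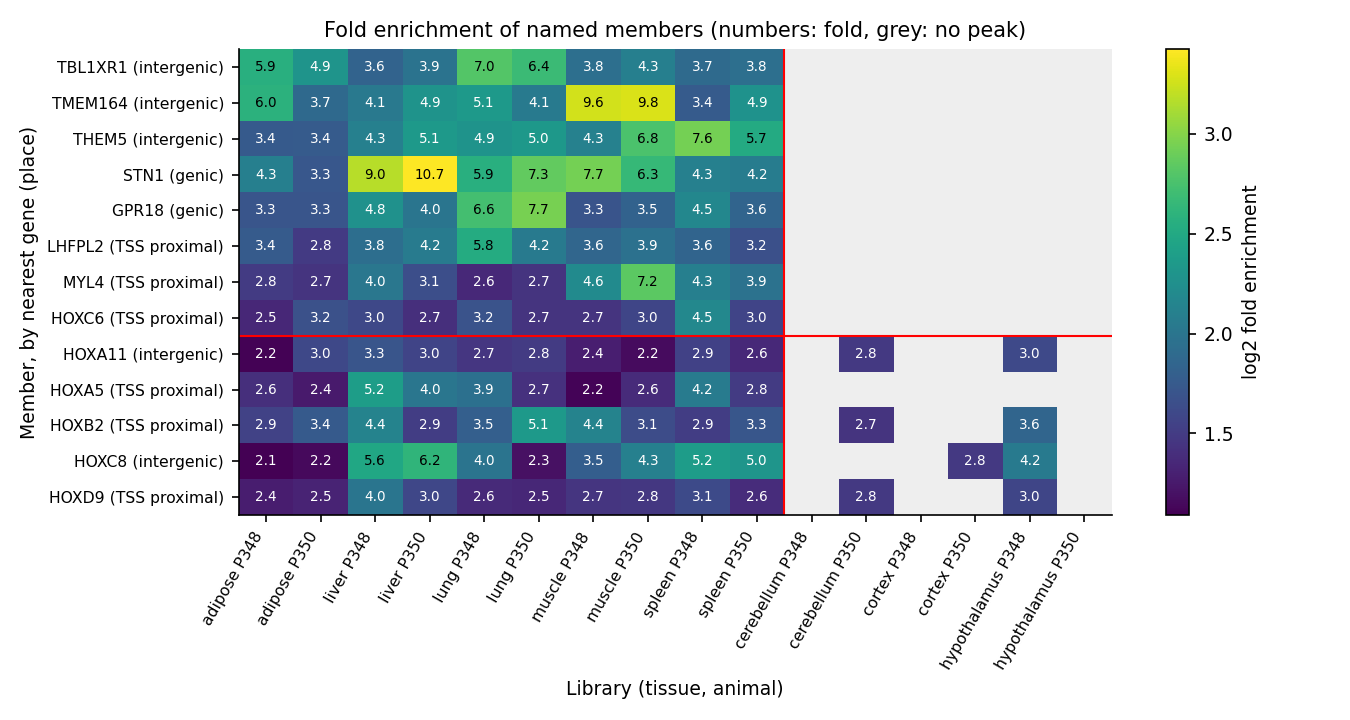
Fold enrichment in each of the 16 libraries (columns, tissue and animal) for the 8 named members with no brain peak (top) and the other 5 HOX members (bottom), by nearest gene, with colour on the log2 scale, the fold as a number and grey where the library had no peak. Folds reach 10.7 at STN1 in liver, and the HOX members other than HOXC6 and HOXA5 show 2 brain libraries with a peak.

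The shares of genes with a member were also above 2.24% for AP-1 and for lipid and energy genes, on small counts. Of 15 genes for AP-1 subunits and relatives, 3 (20%) had a member: FOSL2 with 2, and ATF3 and JDP2 with 1 each. All 4 of these members had a brain peak, those of FOSL2 in 3 and 1 brain libraries, that of ATF3 in 1 and that of JDP2 in 2. Both members of FOSL2, a FOS family subunit, lay at a distance, 52583 and 200914 bp from its TSS, and at the farther one (chr3:111043817-111045738) the fold was 5.497 and 5.332 in spleen and 4.14 and 6.69 in skeletal muscle, against 2.88 to 3.94 in the other non-brain libraries. At the member of ATF3, a stress-induced partner of JUN, the fold was 5.48 and 4.83 in liver and 5.25 and 5.62 in spleen, and 2.12 to 3.49 in the other non-brain libraries, a range that holds its fold of 3.13 in the cerebral cortex of P348.

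Of 23 genes of lipid and energy metabolism, 4 (17.4%) had a member. RXRA, the retinoid receptor that pairs with other nuclear receptors, had 2, each with a peak in 2 brain libraries. The member of ACACB, which makes the malonyl-CoA that holds back fatty acid oxidation, had no brain peak, and its fold was 5.98 and 6.71 in skeletal muscle and 2.56 to 3.76 in the other tissues. ANGPTL4 encodes an inhibitor of lipoprotein lipase, and at its member (chr2:70921442-70922218) the fold was 12.9 and 14.0 in skeletal muscle, 5.33 and 4.88 in liver, 4.75 and 3.48 in adipose, 4.44 and 3.09 in lung, and 3.76 and 2.51 in spleen. A peak with a fold of 2.86 was present in the cerebral cortex of P348. PFKFB3, which speeds glycolysis, had a member with non-brain folds of 1.97 to 3.46 and a peak in 2 brain libraries.

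Among the lists for cell types that several tissues share, 2 of 25 endothelial genes (8%) had a member. CLDN5, a tight junction protein, and ROBO4, a receptor of vessels, had 1 member each, and both had a peak in 3 brain libraries. Collagen and other matrix genes had 1 of 24, COL4A2 of the basement membrane, with folds of 2.11 to 2.73 and again 3 brain libraries with a peak. TGF-beta and BMP genes had 2 of 26, 7.69% (ID3 and SMAD5, each with 1 brain library), and innate signalling had 1 of 23 (TNFRSF1A, with no brain peak). Contractile genes had 1 of 24, MYH9 (nonmuscle myosin), whose 2 members had a peak in 3 and 2 brain libraries. No gene of the YAP and TEAD (15 genes), trunk and limb transcription factor (24), leukocyte (22), neuronal (23), glial (20) or blood (12) lists had a member. Against a background of 2.24% of genes, a count of 0 or 1 in a list of this size is near the background. These counts hold for the listed genes only. CD79B, used above as a marker gene of spleen, and IL2RB were not on the leukocyte list. Both had a member across a TSS, that of CD79B with a peak in 3 brain libraries. The endothelial and TGF-beta shares above the background rest on 2 genes each. Of the open regions nearest to the listed genes, members made up 0.362% (endothelial) and 0.185% (TGF-beta and BMP). Over all protein-coding genes this share was 0.169%, so by open regions the TGF-beta and BMP list was near the background.

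No gene collected many members. The 479 members were nearest to 462 genes, and no gene had more than 2. There were 17 genes with 2. In order of the share of members among their open regions they were B4GALNT1 (25.0% of 8 regions), MRPS18A (14.3% of 14), ULK2 (13.3% of 15), CHMP6 (11.8% of 17), A4GALT (11.11% of 18), ABL1, MYH9, GCH1, DHRS3, PPP2R5C, ETS2, PARP11, RXRA, TBL1X, TMEM164, FOSL2 and RPLP1 (3.23% of 62). B4GALNT1 and A4GALT build glycolipids, ULK2 starts autophagy, CHMP6 belongs to the membrane-cutting ESCRT machinery, and ABL1 is a tyrosine kinase. The next 3 genes by the same order were C4H1orf56, CIDEC, a lipid droplet protein, and HOXA5, whose only open region was a member.

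Both members were without any brain peak at B4GALNT1, DHRS3 and TMEM164. DHRS3, which turns retinal back into retinol, had its members 72978 and 110925 bp from the TSS, with folds of 2.41 to 3.89 over the 10 non-brain libraries in both regions. At TMEM164, on the X chromosome, the intergenic member shown above (chrX:90081407-90082712) had folds of 9.58 and 9.76 in skeletal muscle, 6.01 and 3.71 in adipose, 5.10 and 4.15 in lung, 4.09 and 4.90 in liver, and 3.39 and 4.85 in spleen. Skeletal muscle stood above all other libraries there. Its second member, inside the gene, ranged from 2.81 to 4.47. PARP11 had a region of high fold, 9.36 and 14.5 in skeletal muscle and 7.72 and 6.27 in liver, with a peak in 1 brain library. Its second region, 17749 bp from its TSS, had folds of 2.82 to 4.14 over the 10 non-brain libraries. It also had a peak in the hypothalamus of P348 with a fold of 4.04.

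The 8 members of highest lowest fold did not share a leading tissue. At STN1 (chr14:114839916-114840570), which encodes a telomere maintenance protein, the region lay in an intron and the fold was 8.997 and 10.72 in liver, 7.66 and 6.27 in skeletal muscle, 5.89 and 7.25 in lung, 4.30 and 4.20 in spleen, and 4.29 and 3.31 in adipose. The region nearest to TBL1XR1 (chr13:115684949-115685541), a gene for a subunit of corepressor complexes, lay 196721 bp from the TSS, with 6.97 and 6.43 in lung and 5.91 and 4.92 in adipose against 3.57 to 4.29 in the remaining libraries. The region nearest to GPR18, an orphan receptor gene, lay in an intron of UBAC2, and lung was again highest with 6.63 and 7.70. At the region near THEM5, which encodes a thioesterase, spleen had 7.65 and 5.73, skeletal muscle 4.34 and 6.79, and adipose 3.38 and 3.40.

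In GC content and CpG-rich share, members lay between regions open in all 8 tissues and brain-only regions. In 300 bp windows at the core, the median GC content was 58.0%, against 65.3% in regions open in all 8 tissues, 56.3% in other sets of 5 tissues, 51.0% in brain-only regions and 52.3% in all open regions. Windows rich in CpG (GC of at least 50% and an observed-to-expected ratio of at least 0.6) made up 15.9% of members, 66.3% of regions open in all 8 tissues and 3.38% of brain-only regions. Among TSS proximal regions alone the share was 51.7% of members against 88.5% of regions open in all 8 tissues. Among the others it was 10.9% against 29.8%. Other sets of 5 tissues had 31.7% at the TSS and 8.26% elsewhere, and all open regions had 53.8% and 5.36%. The share of all open TSS proximal regions lies inside the members' interval there (39.2 to 64.1). Windows that were at least 50% repeat-masked were 2.51% of members and 9.40% of all open regions. They were 3.17% of other sets of 5 tissues, 2.14% of brain-only regions and 0.85% of regions open in all 8 tissues.

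The letters of 30 motifs were searched on both strands of the same windows, and a match is a description of letters, not of binding. AP-1 letters were present in 77 members (16.1%, interval 13.1 to 19.6), against 11.7% of all 284109 open regions, 10.8% of other sets of 5 tissues, 10.3% of brain-only regions and 5.44% of regions open in all 8 tissues. They were present in 23.3% of the 90 members with no brain peak (interval 15.8 to 33.1), in 16.4% of those with 1 brain library, 11.6% with 2 and 15.5% with 3. Away from the TSS the share was 17.1% of members and 12.2% of open regions, and at the TSS 8.62% (5 of 58) and 6.54%. The value depended on the window, since 300 bp around the middle of the region gave 11.3% of members and 10.6% of open regions, and 200 bp around the core gave 12.9% and 8.44%.

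Letters of ETS factors, CAGGAAG, were in 20.04% of members, against 14.0% of open regions and 12.3% of those open in all 8 tissues. The core letters of CTCF, AGNNGGCNC, were in 30.7%, against 21.7% and 37.4%, and those of an E-box, CAGCTG, in 31.7%, against 25.4% and 20.1%. Other sets of 5 tissues had 29.5% for the CTCF letters and 28.5% for CAGCTG, both inside the members' intervals. Brain-only regions had 21.4% for the CTCF letters, below the members' interval, and 28.1% for CAGCTG, inside the members' interval. The GC box GGGGCGGG, which SP and KLF factors bind, was in 8.56% of members and in 27.1% of regions open in all 8 tissues. In the core windows, the SOX letters AACAATG were in 1.46% of members (interval 0.71 to 2.99). They were in 7.40% of brain-only regions and 3.71% of all open regions. Regions open in all 8 tissues, brain included, had 1.70%, inside the members' interval, and other sets of 5 tissues had 3.73%. The neurogenic E-box CAGATGG was in 7.52% of members (interval 5.48 to 10.2), 12.6% of brain-only regions and 8.74% of all open regions. The members' interval holds the share of all open regions, and regions open in all 8 tissues had 4.95%. The AT-rich letters TAATTA of homeodomain proteins were in 1.88% of members and 4.32% of open regions, and HOX/PBX letters, TGATTNAT, in 1.25% and 3.02%. In regions open in all 8 tissues TAATTA was in 1.41% and HOX/PBX letters in 1.02%. The motif shares moved with the window. At the middle of the region SOX letters were in 2.51% of members and 4.03% of open regions, TAATTA in 5.01% and 6.21%, HOX/PBX letters in 2.30% and 3.78%, and the CTCF letters in 20.3% and 17.2%. The GC content of members was higher than that of open regions, and the part of base composition in the motif shares was not tested.

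**Figure D5:**
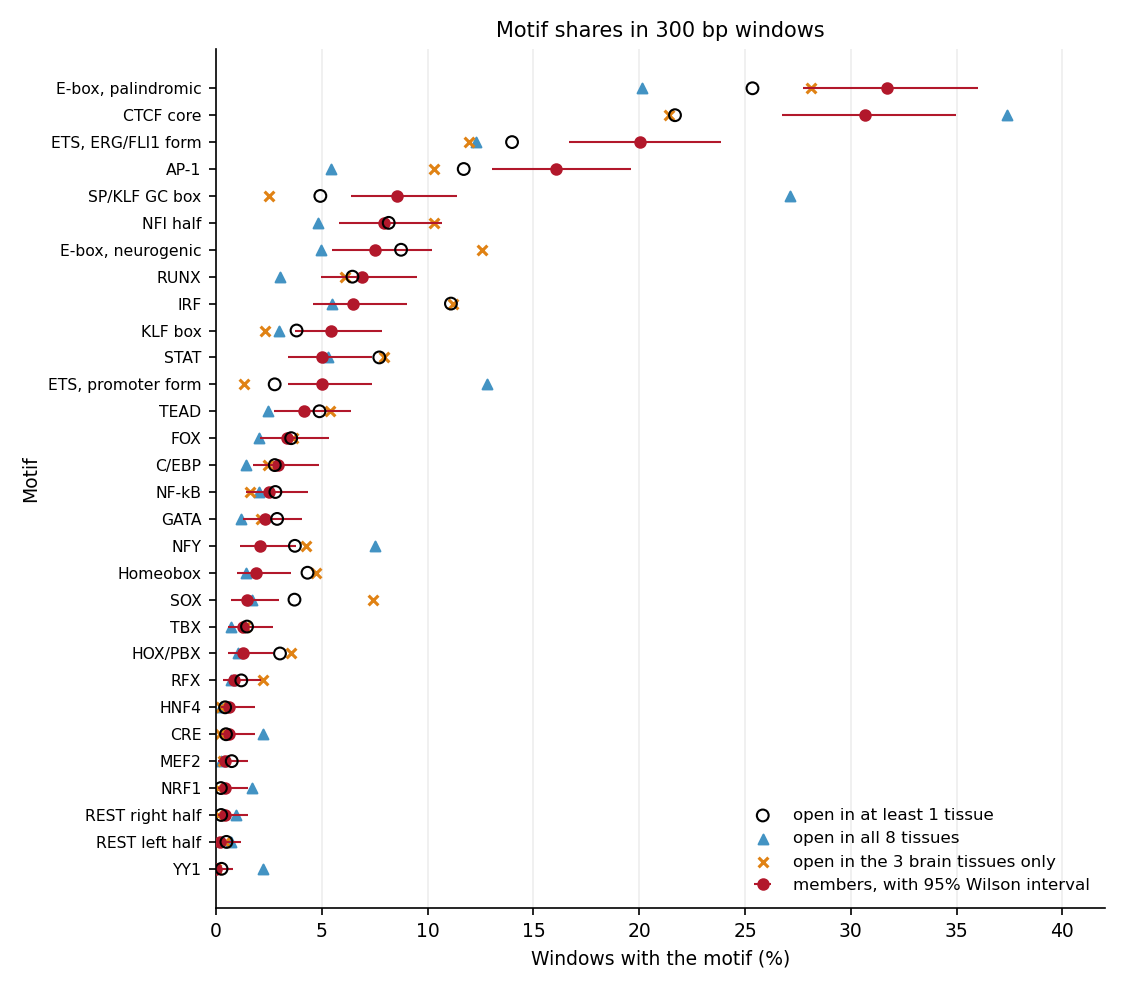
Percent of 300 bp windows that hold each of 30 motifs, for members (red, with 95% Wilson intervals), all regions open in at least 1 tissue (open circles), regions open in all 8 tissues (triangles) and brain-only regions (crosses). Members lie above all open regions for AP-1 (16.1% against 11.7%) and below them for SOX (1.46% against 3.71%). Regions open in all 8 tissues have 1.70% for SOX.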

How the data were processed

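ATAC-seq peak lists of 16 pig libraries were analysed, each from 1 library and not pooled, and 15 cattle lists were not used here. The submitters' processing notes name Trim Galore 0.4.5, BWA 0.7.17, SAMtools 1.10 and Picard 2.18.17, and the study's methods state peak calling with MACS2 in broad mode at a q-value limit of 0.05. The lists reach down to a −log10 q-value of 1.00 on average over a peak. A shift of read ends, as is usual for ATAC-seq, is not given in the sources used here. The deposited lists hold the fold enrichment (the ratio of signal to local background), the −log10 p-value, the −log10 q-value and a score. The score and the other values are as deposited, computed by the authors with their peak caller. Beside the peak positions, only the fold enrichment and the −log10 q-value were used here. Read depth was not used here, so no interval rests on read counts, and a more deeply sequenced library may list more and weaker peaks.

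Samples were grouped by the tissue in their labels, with the animal as replicate. Peaks sharing 1 bp were merged, and a tissue was open when both animals had a peak. Regions were placed on the RefSeq annotation of Sscrofa11.1, the build of the files. All 270 sequence names were matched. Members were assigned to the nearest coding TSS. The members, gene lists and motifs were chosen with earlier results of these data known. Named genes were the 20 with most members (symbols starting LOC passed over), up to 4 per list, the TSS proximal members with no brain peak (up to 10, of which 9 exist), and the 3 TSS proximal and 5 other members with no brain peak of highest lowest fold.

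Candidates chosen in 1 animal were measured in the other. The planned exact one-sided permutation test over tissues was computed, but it can only show that libraries of a tissue resemble each other, so the shares are given as a description. Python 3.11.15, NumPy 2.4.6, pandas 2.3.3 and SciPy 1.17.1 were used. Libraries with the same animal name come from 1 animal and are therefore paired. The difference between animals in peak presence correlated between tissues by -0.0010 on average over 28 pairs of tissues. With 2 animals from 1 litter, the SD covers these animals only. Alternatives were other q-value limits, lists of equal length, other merging, other rules for brain, other windows and gene assignments, and each animal alone.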

Additional observations from a re-analysis of the deposited data

How the results depend on the processing

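The number of members depended on the peaks admitted. It was 222 with q-values under 0.01 and 55 under 0.0001, 148 when peaks had to cover 50% of a region, 90 with no peak in any brain library, and 657 with lists of equal length. With 1 animal alone it ranged from 439 to 950. Chosen after seeing the data, leaving out the cerebellum of P348 gave 295, leaving out that of P350 gave 434 (TSS proximal share 13.1%, median width 1931 bp), and leaving cerebellum out of the rule gave 667. The TSS proximal share was 18.9% under a q-value of 0.01, 29.1% under 0.0001, 17.8% with lists of equal length, 8.20% to 8.42% with 1 animal, and 20.04% with a TSS distance of 5 kb. The median width was 1744 bp, 1710 bp, 2046 bp (peaks closer than 500 bp merged), 1731 bp (no brain peak), 1749 bp (without the cerebellum of P348) and 1336 to 1415 bp (1 animal), the first pair under the q-value limits. AP-1 letters were in 12.9% of 200 bp windows and in 11.3% of windows at the middle of the region. With any TSS within 50 kb, 53 genes had 2 or more members against 17, and HOXA3 had 3. The cause of these shifts was not tested.

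The difference in the held-out animal ranged from 51.5 to 63.7 points under its 5 alternatives. The permutation p stood at the smallest value the design allows in each of them, so it says nothing about stability. In the replicate block, with tissue labels permuted within each animal, the difference was the same 51.5 points, and its p is not used, since both directions rest on the same lists. With 2 animals, no spread within a tissue can be told from 1 deviating library.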
